A study of Homo sapiens with 70 samples.

Results

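The total effect of losing both C/EBPβ and p53 while oncogenic RAS was active was measured in 10 RNA-seq libraries of IMR90 human fetal lung fibroblasts, out of 70 samples in the series. They were taken by their labels and replicate numbers from a count table of 25 libraries: 5 of OIS-shCEBPB-shp53 cells, which carried shRNAs against both factors, and 5 of OIS-v-v cells, which carried both vectors without an shRNA (pSuper and pMSCV miR). All cells in both groups carried pLNCX2 ER:HRAS G12V, an oncogenic HRAS fused to an oestrogen receptor domain, and were taken after 6 days in 100 nM 4-hydroxytamoxifen (4OHT), which activates the fusion and establishes oncogene-induced senescence (OIS). In OIS-shCEBPB-shp53 cells, CEBPB was targeted from pSuper and p53 from a miR30-type hairpin in pMSCV. Per the methods, cells were transduced stably with retroviruses and selected, so each culture is a pool rather than a clone. The other 3 groups of the table, used here only for reference, were OIS-shCEBPB and OIS-shp53 cells, with 1 shRNA and 1 empty vector each, and Grow-v-v cells, with both vectors and no 4OHT (day 0), at 5 libraries each.

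C/EBPβ is a basic leucine zipper transcription factor that, with NF-κB, drives the inflammatory part of the senescence-associated secretory phenotype (SASP), in which IL-1 signalling sustains the production of IL-6 and IL-8. p53 is a stress-activated transcription factor that enforces the arrest of senescent cells, largely through CDKN1A (p21), which inhibits cyclin-dependent kinases. In fibroblasts with active RAS the RB pathway, engaged by CDKN2A (p16), acts beside p53 in holding the arrest.

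Total counts ran from 16481086 to 18720716 (median 17893304) in the OIS-v-v libraries and from 15861794 to 18359200 (median 18081635) in the OIS-shCEBPB-shp53 libraries. Levels are given below in CPM, counts scaled to the normalised size of the library. The libraries fell into 2 sets, replicates 1 to 3 and replicates 4 and 5, and the labels do not say what separates them. Libraries of the same set deviated together from their group means, and those with the same number correlated in the same range as others of their set. The replicate number was kept as a block in every main fit. The effect of the double knock-down differed between the sets for 2095 of 13388 genes (edgeR adjusted p under 0.05), and values within each set are therefore given beside many of the results. Fibroblast markers summed to 13955 to 21360 CPM in OIS-v-v and 19369 to 23160 CPM in OIS-shCEBPB-shp53 libraries, and 5 of the 10 tested rose. Endothelial markers summed to 63.8 to 76.3 CPM in OIS-v-v and 59.4 to 66.4 CPM in OIS-shCEBPB-shp53 libraries (1 of 3 tested, KDR, was lower), and leukocyte markers to 47.0 to 90.1 and 44.3 to 60.7 CPM (the 1 tested, CD68, was lower). Epithelial markers were between 1.72 and 2.93 CPM in OIS-v-v and between 3.78 and 5.56 CPM in OIS-shCEBPB-shp53 libraries, and the 1 tested, CLDN4, rose. Of the 6 epithelial markers 3 were at 0 in all OIS-shCEBPB-shp53 libraries, as were 3 of the 5 leukocyte markers, and the part of these markers in the results was not tested. Where genes overlap, their reads may be shared: IRF9, MYL9, CD68, DDIT4 and DDIT3 have 51.5%, 57.5%, 50.1%, 43.1% and 30.1% of their exonic bases in common with another gene, and their values are uncertain. These are bulk libraries, so fewer cells of a kind and less RNA per cell cannot be told apart.

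The shRNA against CEBPB lowered its target in every library. CEBPB (chromosome 20, 48807376 to 48809212 on hg19) stood at 294, 288, 331, 261 and 308 CPM in OIS-v-v replicates 1 to 5. In OIS-shCEBPB-shp53 replicates 1 to 5 it stood at 31.3, 34.0, 38.9, 28.0 and 29.9 CPM. The groups did not overlap, and the fall was from 296 ± 25.9 to 32.4 ± 4.24 CPM (SD, n = 5 each), a change of -3.20 on the log2 scale (SE, the standard error, 0.06, edgeR adjusted p = 5.2e-11). This left CEBPB below its level in Grow-v-v cells, 178 ± 15.0 CPM, and beside that in OIS-shCEBPB cells, 35.5 ± 6.72 CPM.

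**Figure D1:**
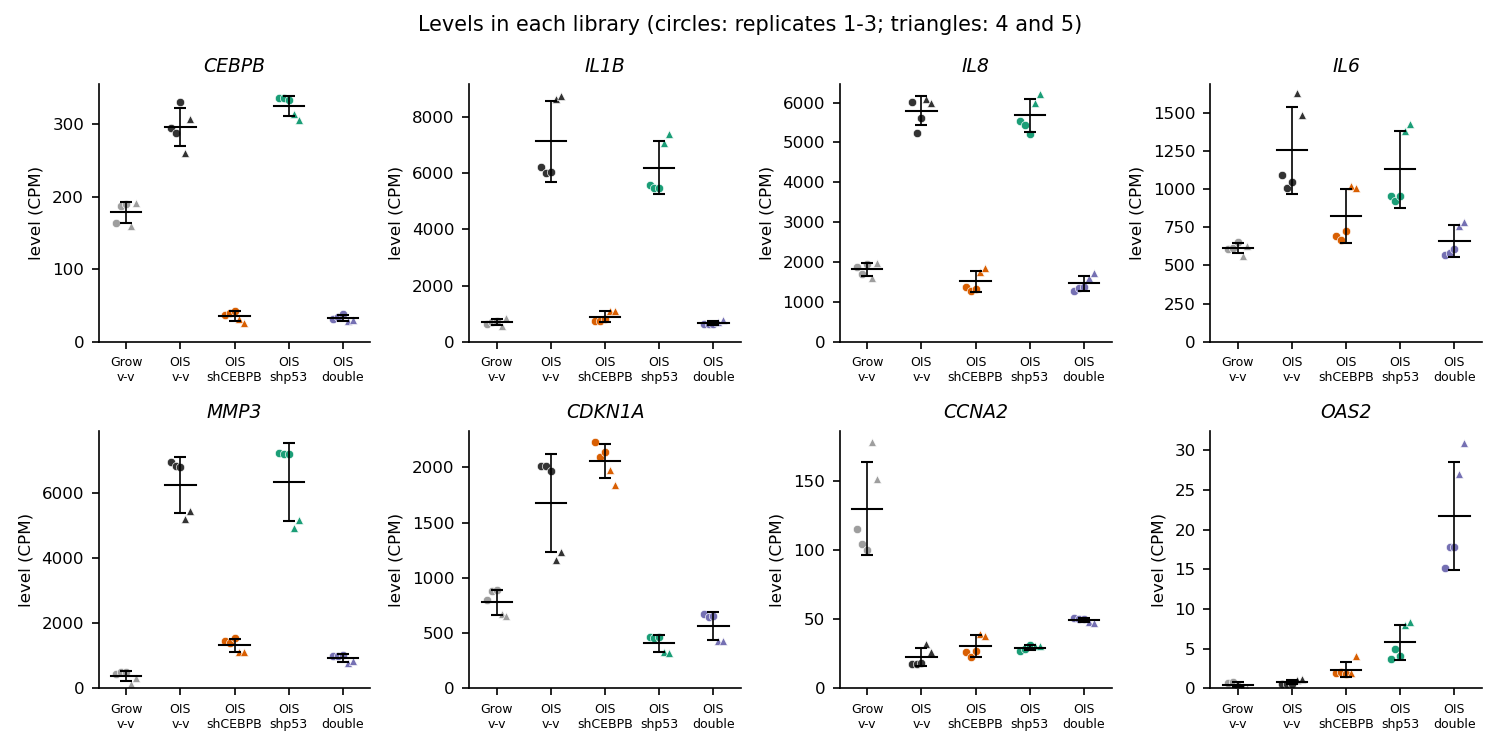
Level in CPM (vertical axes, from 0) of 8 genes in each of 25 libraries, by group (horizontal axis); circles are replicates 1 to 3, triangles replicates 4 and 5, and bars the mean ± SD (n = 5). CEBPB, IL1B, IL8, IL6 and MMP3 were lower in OIS-shCEBPB and OIS-shCEBPB-shp53 than in OIS-v-v libraries, CDKN1A was lower with shp53, and CCNA2 and OAS2 were higher in the double knock-down than in the 3 other OIS groups.

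Across the transcriptome, 5806 of 13388 genes tested (43.4%) passed an adjusted p under 0.05, 2938 of them higher (21.9%) and 2868 lower (21.4%) in OIS-shCEBPB-shp53 than in OIS-v-v cells. Most of these differences were small, with a median size of 0.41 on the log2 scale. A fold change of at least 2 was reached by 847 genes (6.33%), 509 higher and 338 lower, and one of at least 4 by 110 higher and 89 lower genes. The groups did not overlap for 3281 genes (24.5%). Scaling by library size only moved the median over all genes by 0.103 on the log2 scale, and the called genes then split into 4431 higher and 1778 lower, so directions of small changes are relative to the scaling. The shares of 43.4%, 21.9%, 21.4% and 24.5% are the background for the counts below over all libraries. Counts within a set of replicates have their own background, given beside them.

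**Figure D2:**
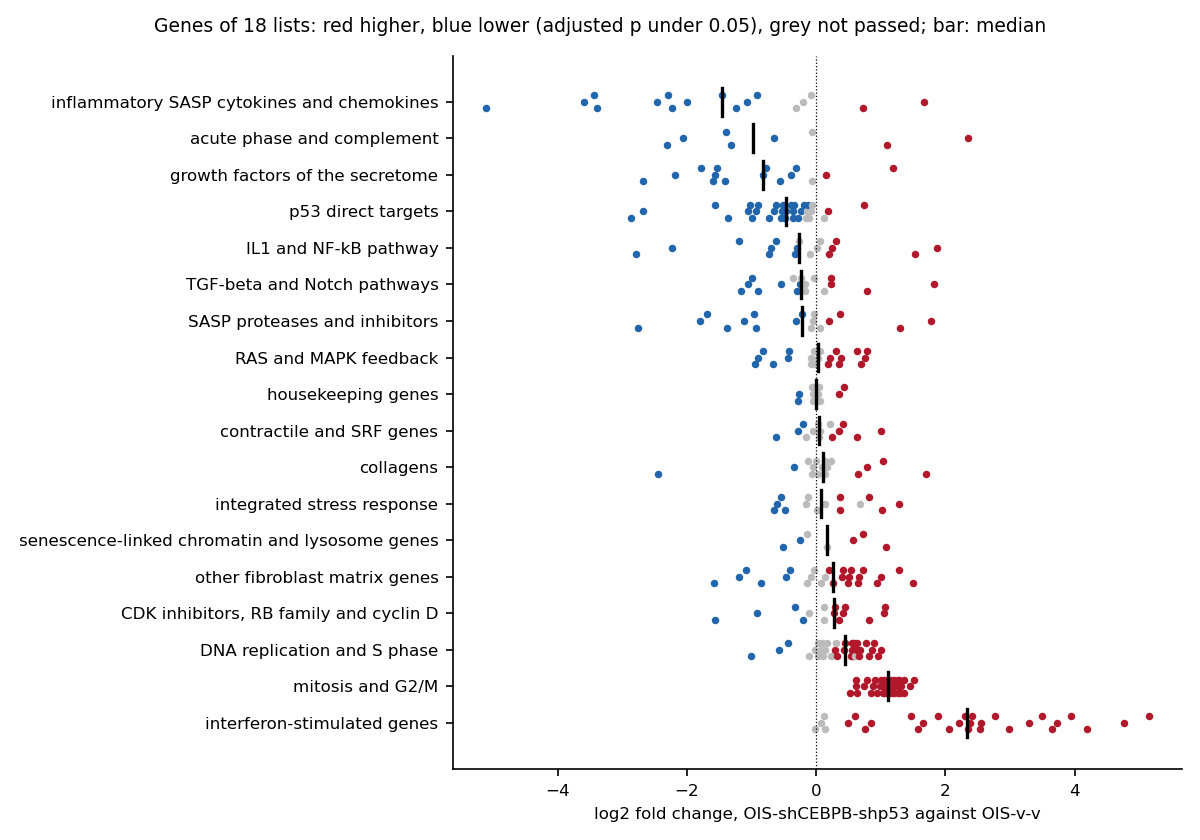
Log2 fold change between OIS-shCEBPB-shp53 and OIS-v-v libraries (horizontal axis) of each tested gene in 18 lists (rows); red and blue points passed an adjusted p under 0.05 as higher and lower, grey points did not, and black bars are list medians. Inflammatory SASP genes lie mostly left of 0 (median -1.46), mitosis genes (median 1.11) and interferon-stimulated genes (median 2.33) right of it.

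The inflammatory SASP was lower as a group. Of 17 cytokines and chemokines tested, 12 fell, 2 rose and 3 did not pass, with a median log2 fold change of -1.46 against -0.01 over all genes, and for 13 of the 17 the groups did not overlap. The median was -1.61 in replicates 1 to 3 and -1.60 in replicates 4 and 5 (18 members tested there), and the effect in replicates 4 and 5 was higher for 6 members and lower for 3. One further member, CCL3, was not matched to a row of the table by symbol. IL1B encodes IL-1β, the secreted cytokine that feeds the SASP through the IL-1 receptor. It was at 6219, 5997, 6050, 8644 and 8746 CPM in OIS-v-v and at 632, 618, 628, 711 and 779 CPM in OIS-shCEBPB-shp53 replicates. All 5 knock-down libraries lay far below the vector libraries, a log2 fold change of -3.39 (SE 0.07, edgeR adjusted p = 1.0e-10), and their mean, 673 CPM, was near the 701 ± 101 CPM of Grow-v-v cells. IL8, a neutrophil chemokine, fell from 5246 to 6096 CPM in OIS-v-v libraries to 1272 to 1734 CPM (log2 fold change -1.99, SE 0.07, edgeR adjusted p = 6.6e-09). IL6, the pleiotropic cytokine, fell less, with 1092, 1011, 1048, 1632 and 1486 CPM in OIS-v-v and 570, 584, 608, 760 and 784 CPM in OIS-shCEBPB-shp53 libraries, a log2 fold change of -0.91 (SE 0.05, edgeR adjusted p = 4.5e-07). The groups did not overlap for IL8 or IL6.

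Largest in size among the 17 tested was the fall of CCL20, the ligand of CCR6, from 26.2, 25.4, 22.1, 8.75 and 6.15 CPM to between 0.262 and 0.876 CPM (log2 fold change -5.11, SE 0.18, edgeR adjusted p = 8.0e-09). Replicates 4 and 5 of OIS-v-v held less CCL20 than replicates 1 to 3, yet still more than any knock-down library. IL24, a cytokine of the IL-10 family, fell by 3.6 and CSF3, the granulocyte colony-stimulating factor, by 3.44 on the log2 scale. LIF, an IL-6 family cytokine singled out here after its values were seen, went from 473 to 565 CPM to 84.1 to 114 CPM, a log2 fold change of -2.46. Log2 fold changes of the CXCR2 ligands were -2.23 for CXCL2, -1.46 for CXCL3 and -1.23 for CXCL1, all without overlap, although these paralogs share sequence and their counts are less certain. The monocyte chemokine CCL2 went the other way, from 5.31 to 9.22 CPM in OIS-v-v to 20.7 to 25.4 CPM in knock-down libraries (log2 fold change 1.66, SE 0.11, edgeR adjusted p = 1.0e-06), and CSF1, the macrophage growth factor, rose by 0.73 on the log2 scale. Neither overlapped between the groups.

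Some cytokines did not pass over all libraries, which does not mean that they were unchanged within each set. IL1A, the cell-bound IL-1 that acts upstream in the SASP, was at 341, 324, 328, 138 and 130 CPM in OIS-v-v and at 187, 187, 176, 195 and 193 CPM in OIS-shCEBPB-shp53 libraries. The double knock-down libraries were close to each other, whereas the vector libraries split by set, so the log2 fold change was -0.85 in replicates 1 to 3 and 0.54 in replicates 4 and 5, and -0.31 over all (edgeR adjusted p = 0.27). CSF2, the granulocyte-macrophage colony-stimulating factor, had a log2 fold change of -0.08 (edgeR adjusted p = 0.54, and 0.03 with library sizes alone). Within replicates 4 and 5 alone, CSF2 was higher, by 0.27 (edgeR adjusted p = 7.3e-04). The chemokine CXCL6 had a log2 fold change of -0.19 (edgeR adjusted p = 0.19).

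The promoters of 2 cytokines are printed because C/EBPβ is known to act on both, and they show where the letters of a C/EBP site lie. The windows are the 250 bases before the RefSeq start site (GRCh38.p14, not the hg19 build of the counts), written 5′ to 3′ on the gene's strand, and capitals mark TTGCNNAA on either strand. IL6 lies on the plus strand (chr7:22726950-22727199) and its match starts 155 bases before the start site. IL1B lies on the minus strand (chr2:112836780-112837029) and its match starts 215 bases before it.
IL6: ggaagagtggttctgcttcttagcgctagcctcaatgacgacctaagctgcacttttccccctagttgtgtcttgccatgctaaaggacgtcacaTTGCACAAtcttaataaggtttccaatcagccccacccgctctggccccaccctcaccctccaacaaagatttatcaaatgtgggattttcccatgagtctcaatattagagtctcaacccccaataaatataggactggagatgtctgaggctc
IL1B: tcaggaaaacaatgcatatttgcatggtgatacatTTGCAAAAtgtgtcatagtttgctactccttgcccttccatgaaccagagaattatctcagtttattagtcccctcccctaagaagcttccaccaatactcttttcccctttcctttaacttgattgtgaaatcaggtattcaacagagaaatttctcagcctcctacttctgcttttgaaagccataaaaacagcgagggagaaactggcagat
Such a match was found in 5 of the 18 promoters of the cytokine list that have a RefSeq window (27.8%), against 2492 of 27305 promoters (9.13%) and 595 of 10331 tested genes (5.76%). Members without a match in this window included CCL20, IL24 and IL8, which fell, and CSF2 and CXCL6, which did not pass. CCL3 is among those with a match, although it was not matched to a row of the table. These are letters in a window and not measured binding.

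Regulators around IL-1 and NF-κB moved both ways, with 8 of 17 lower, 5 higher and a median of -0.26. PTGS2 (COX-2), which makes prostaglandins, was at 905, 888, 860, 922 and 800 CPM in OIS-v-v and at 135, 142, 125, 104 and 128 CPM in OIS-shCEBPB-shp53 libraries, a log2 fold change of -2.79 without overlap. The adhesion molecule ICAM1 fell by 1.19, the IL-1 receptor kinase IRAK2 by 0.72 and the receptor subunit IL1RAP by 0.70 on the log2 scale. BIRC3 (cIAP2), a ubiquitin ligase of the NF-κB pathway, instead rose from 14.3 to 22.4 CPM to 52.5 to 59.7 CPM (log2 fold change 1.53, SE 0.09, edgeR adjusted p = 4.2e-07). Log2 fold changes were 0.31 for NFKBIE, an inhibitor of NF-κB, 0.24 for its subunit RELB and 0.21 for the receptor IL1R1.

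Of the 4 C/EBP family genes tested, CEBPB included, 1 rose, 2 fell and 1 did not pass. CEBPD, a partner and paralog of CEBPB that responds to inflammation, was at 109, 104, 117, 76.5 and 82.9 CPM in OIS-v-v and at 145, 149, 150, 148 and 171 CPM in OIS-shCEBPB-shp53 libraries. It rose without overlap (log2 fold change 0.65, SE 0.10, edgeR adjusted p = 3.8e-04). CEBPG, a family member that lacks an activation domain, had a log2 fold change of -0.40 (edgeR adjusted p = 0.023), -0.10 in replicates 1 to 3 and -0.85 in replicates 4 and 5. DDIT3 (CHOP) had one of -0.16 (edgeR adjusted p = 0.14). CEBPA and CEBPE were too low to be tested.

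Among proteases and their inhibitors, 9 of 17 fell and 4 rose, with medians of -0.21 in replicates 1 to 3 and -0.30 in replicates 4 and 5. MMP3, stromelysin, was at 6948, 6813, 6799, 5195 and 5441 CPM in OIS-v-v and at 1001, 1005, 1010, 762 and 830 CPM in OIS-shCEBPB-shp53 libraries, a log2 fold change of -2.76 (SE 0.05, edgeR adjusted p = 5.2e-11), nearly equal in both sets of replicates. MMP1, interstitial collagenase, lost less, from 16843 to 18479 CPM to 8850 to 10476 CPM (log2 fold change -0.92, SE 0.05, edgeR adjusted p = 2.4e-07), and stayed above the 2841 ± 972 CPM of Grow-v-v cells. SERPINB2 (PAI-2), a protease inhibitor, fell by 1.80, TIMP1, an inhibitor of metalloproteinases, by 1.69 and MMP10 by 1.38 on the log2 scale. TIMP3, another such inhibitor, rose from 139 to 151 CPM to 433 to 565 CPM (log2 fold change 1.78), and TIMP2 and MMP2 by 0.36 and 0.19. The gelatinase MMP9 rose by 1.30, from 0.965 to 3.10 CPM to 3.39 to 5.82 CPM, with 0.70 in replicates 1 to 3 and 2.46 in replicates 4 and 5.

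Growth factors of the secretome were mostly lower, 12 of 15 with 2 higher and a median of -0.82. GDF15, a TGF-β family stress hormone and a p53 target, was at 797, 785, 804, 412 and 448 CPM in OIS-v-v and at 136, 130, 133, 58.4 and 60.9 CPM in OIS-shCEBPB-shp53 libraries (log2 fold change -2.69, SE 0.06, edgeR adjusted p = 2.8e-10). Both groups were lower in replicates 4 and 5, and they did not overlap. The EGF receptor ligands AREG and EREG fell by 2.19 and 1.78 and fibroblast growth factor FGF2 by 1.6 on the log2 scale. HGF, the ligand of MET, rose from 127 to 251 CPM to 349 to 408 CPM (log2 fold change 1.20, SE 0.12, edgeR adjusted p = 2.3e-05), and VEGFC by 0.15. Of 8 acute phase and complement genes, 5 fell and 2 rose. SERPINA1 (α1-antitrypsin) fell by 2.31, complement C3 by 2.06 and the serum amyloid genes SAA2 and SAA1, near-identical paralogs, by 1.39 and 1.31, while the pattern recognition protein PTX3 rose from 71.8 to 88.1 CPM to 360 to 486 CPM (log2 fold change 2.35, SE 0.05, edgeR adjusted p = 3.7e-10).

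Direct targets of p53 fell, but by less than with shp53 alone. Of 33 tested, 25 were lower and 2 higher in the double knock-down than in OIS-v-v cells, with a median log2 fold change of -0.46, and for 18 the groups did not overlap. CDKN1A was at 2016, 2015, 1965, 1158 and 1232 CPM in OIS-v-v and at 673, 648, 655, 425 and 427 CPM in OIS-shCEBPB-shp53 libraries. All knock-down libraries were below all vector libraries (log2 fold change -1.56, SE 0.05, edgeR adjusted p = 3.4e-09) and, with a mean of 566 CPM, below the 779 ± 113 CPM of Grow-v-v cells. BTG2, an antiproliferative cofactor, fell from 14.2, 14.1, 14, 8.20 and 6.57 CPM to 2.28, 2.45, 1.93, 0.786 and 0.597 CPM, a log2 fold change of -2.86. SPATA18, a mitochondrial quality factor, fell by 1.36 and SESN2, a stress-induced inhibitor of mTORC1, by 0.66 on the log2 scale. MDM2, the ubiquitin ligase of p53, named after its values were seen, had a log2 fold change of -0.46 and no overlap.

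2 targets of the list rose. PLK2, a polo-like kinase, was at 159, 158, 146, 76.7 and 72.1 CPM in OIS-v-v and at 224, 220, 213, 165 and 155 CPM in OIS-shCEBPB-shp53 libraries (log2 fold change 0.74, SE 0.10, edgeR adjusted p = 1.9e-04), and APAF1, of the apoptosome, rose by 0.19. Against OIS-v-v, the median of the 33 targets was 0.34 with shCEBPB alone (27 higher, 1 lower) and -0.81 with shp53 alone (30 lower). Of all 13388 genes, 2535 were higher and 2330 lower with shCEBPB alone, and 1665 were lower with shp53 alone. Set against the single knock-downs directly, 30 of the 33 were lower in the double than in OIS-shCEBPB cells and 28 higher than in OIS-shp53 cells. The shares of all genes in the same tests were 14.5% lower against OIS-shCEBPB and 19.6% higher against OIS-shp53. CDKN1A, for example, was 2057 ± 152 CPM in OIS-shCEBPB, 406 ± 75.5 CPM in OIS-shp53 and 566 ± 128 CPM in double knock-down cells, and the double differed from OIS-shp53 by 0.47 on the log2 scale (edgeR adjusted p = 2.5e-05).

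Mitotic genes rose together. All 39 genes of mitosis and G2/M tested were higher in the double knock-down than in OIS-v-v cells, with a median log2 fold change of 1.11 and single genes from 0.52 to 1.51, and for 38 the groups did not overlap. CCNA2, the cyclin of S phase and G2, was at 17.5, 17.5, 18.6, 31.9 and 26.7 CPM in OIS-v-v and at 50.6, 49.9, 50.4, 48.1 and 47.6 CPM in OIS-shCEBPB-shp53 libraries. The knock-down libraries were alike, whereas OIS-v-v replicates 4 and 5 lay above replicates 1 to 3, and the log2 fold change of 1.17 (SE 0.13, edgeR adjusted p = 5.0e-05) was 1.5 in replicates 1 to 3 and 0.71 in replicates 4 and 5. ASPM, of the spindle pole, rose most, from 13.2 to 22.9 CPM to 42.4 to 52.8 CPM (log2 fold change 1.51). Next were the kinesin KIF20A with 1.45, the mitotic cyclin CCNB2 and the centromeric histone CENPA with 1.36 each, and MKI67, the Ki-67 antigen, had a log2 fold change of 0.79 (edgeR adjusted p = 0.0022).

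The rise was partial and differed between the sets. Summed over the 39 genes, OIS-v-v libraries held 766 to 1341 CPM and OIS-shCEBPB-shp53 libraries 1898 to 2060 CPM, against 3809 to 6798 CPM in Grow-v-v libraries. The median log2 fold change was 1.48 in replicates 1 to 3 and 0.62 in replicates 4 and 5, and the effect differed between the sets for 38 of the 39 genes, lower in replicates 4 and 5 in each. Within replicates 4 and 5 alone, 38 of the 39 were still higher past the threshold. Each single knock-down was smaller, with medians of 0.45 for shCEBPB (30 of 39 higher) and 0.42 for shp53 (32 of 39 higher). Of all 13388 genes, 2535 were higher with shCEBPB alone and 1668 with shp53 alone. In direct tests the double knock-down lay above OIS-shCEBPB cells for 39 and above OIS-shp53 cells for 38 of the 39 genes, where 14.7% and 19.6% of all genes were higher.

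Promoters of 2 mitotic genes are shown to place the cell cycle genes homology region (CHR), an element through which complexes downstream of p53 and RB repress such genes. Capitals mark TTTGAA on either strand of the 250 bases before the RefSeq start site (GRCh38.p14), and both genes lie on the plus strand. CCNB2 (chr15:59104896-59105145) has 1 match, 29 bases before the start site. CDC20 (chr1:43358731-43358980), the activator of the anaphase-promoting complex, chosen for its match after its values were seen, has matches that start 178 and 65 bases before it.
CCNB2: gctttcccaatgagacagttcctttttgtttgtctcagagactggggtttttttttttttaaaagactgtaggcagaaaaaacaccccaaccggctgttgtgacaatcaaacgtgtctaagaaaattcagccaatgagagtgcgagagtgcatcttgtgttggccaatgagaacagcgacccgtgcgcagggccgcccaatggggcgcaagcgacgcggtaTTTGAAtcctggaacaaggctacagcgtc
CDC20: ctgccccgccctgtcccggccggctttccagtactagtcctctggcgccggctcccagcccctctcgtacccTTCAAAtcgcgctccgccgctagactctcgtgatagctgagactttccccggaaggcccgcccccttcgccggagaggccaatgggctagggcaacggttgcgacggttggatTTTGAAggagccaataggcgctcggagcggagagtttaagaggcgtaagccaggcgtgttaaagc
The letters occurred in 18 of the 33 mitotic promoters with a RefSeq window (54.5%), against 3704 of 27305 promoters (13.6%) and 872 of 10331 tested genes (8.44%). CDC20 had a log2 fold change of 1.28, from 23.2 to 42.6 CPM to 68.2 to 76.4 CPM, without overlap.

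Genes of DNA replication and S phase rose less evenly. Of 35 tested, 20 were higher, 3 lower and 12 did not pass, with a median of 0.45. TK1, thymidine kinase, had a log2 fold change of 1.0, from 16.0 to 24.5 CPM to 34.5 to 45.7 CPM, the helicase subunits GINS1 and GINS4 ones of 0.95 and 0.86 and the origin recognition subunit ORC1 one of 0.90. The cyclins of S phase entry went down, CCNE2 by 0.58 and CCNE1 by 0.44 on the log2 scale. E2F1, the transcription factor of S phase entry, was at 15.5, 15.6, 15.0, 17.1 and 21.1 CPM in OIS-v-v and at 16.6, 17.6, 18.3, 16.8 and 16.7 CPM in OIS-shCEBPB-shp53 libraries, which overlapped (log2 fold change 0.04, edgeR adjusted p = 0.78), far below the 53.8 ± 14.8 CPM of Grow-v-v cells. The list median was 0.70 in replicates 1 to 3, where 30 genes were higher, and 0.11 in replicates 4 and 5, where 10 were, and the effect differed between the sets for 26 of the 35.

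Several other inhibitors of the cell cycle rose. CDKN2A, which encodes p16 and ARF, was at 29.5, 30.4, 27.3, 16.2 and 15.9 CPM in OIS-v-v and at 51.5, 51.1, 53, 41.7 and 46.9 CPM in OIS-shCEBPB-shp53 libraries, a rise without overlap (log2 fold change 1.07, SE 0.11, edgeR adjusted p = 2.9e-05). The inhibitors CDKN1C (p57), CDKN2C (p18) and CDKN1B (p27) had log2 fold changes of 1.05, 0.82 and 0.28, all past the threshold, and CDKN2D (p19) one of -0.33. CDKN2B (p15) was 96.2 ± 8.70 and 105 ± 2.55 CPM (log2 fold change 0.12, edgeR adjusted p = 0.098). The kinases CDK6 and CDK4 rose by 0.42 and 0.36 and the pocket proteins RBL1 (p107) and RB1 by 0.45 and 0.29, with RBL2 (p130) at 0.13 (edgeR adjusted p = 0.052). Of the D-type cyclins, CCND2 fell by 0.91 and CCND1 by 0.20 on the log2 scale and CCND3 had a log2 fold change of -0.11 (edgeR adjusted p = 0.13). In all, 8 of these 15 genes rose and 4 fell.

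Senescence-linked chromatin and lysosome genes divided, with 3 of 7 higher, 2 lower and 2 that did not pass. HMGB2, a chromatin protein, went from 10.8 to 19.6 CPM to 26.2 to 37.0 CPM (log2 fold change 1.08), LMNB1, lamin B1, from 13.6 to 25.0 CPM to 28.9 to 33.3 CPM (0.73) and HMGB1 rose by 0.57. Grow-v-v cells held more LMNB1, 105 ± 25.9 CPM. HMGA2, an architectural protein of senescence heterochromatin foci, fell by 0.52 and the histone variant H2AFJ by 0.25 on the log2 scale. The effect differed between the sets for all 7 genes, lower in replicates 4 and 5 for 5 and higher for 2, with medians of 0.34 in replicates 1 to 3 and 0.04 in replicates 4 and 5. The log2 fold change of LMNB1 was 1.07 and 0.27 within these sets.

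Interferon-stimulated genes showed the largest group rise, in median log2 fold change, of the 23 lists. Of 30 tested, 26 were higher and 4 did not pass, the median was 2.33, and for 25 the groups did not overlap. OAS2, an oligoadenylate synthetase that senses double-stranded RNA, was at 0.562, 0.594, 0.585, 1.09 and 1.15 CPM in OIS-v-v and at 15.1, 17.8, 17.8, 27.0 and 30.9 CPM in OIS-shCEBPB-shp53 libraries. No library overlapped (log2 fold change 4.76, SE 0.11, edgeR adjusted p = 2.8e-10), and replicates 4 and 5 were the higher ones in both groups. OAS1, its relative, rose from 0.117 to 0.38 CPM to 4.89 to 13.9 CPM (log2 fold change 5.15), the antiviral enzyme RSAD2 from at most 0.351 CPM to 2.69 to 4.18 CPM (4.20) and the surface protein BST2, or tetherin, from at most 0.468 CPM to 2.29 to 4.54 CPM (3.94). OAS1, RSAD2 and BST2 were near the limit of detection in OIS-v-v libraries, so the size of their fold changes is less certain than the direction.

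Some regulators of the response were among the members that did not pass, but not all. STAT2, IRF1 and IRF9, with log2 fold changes of 0.14, 0.13 and 0.08, did not pass (edgeR adjusted p of 0.057, 0.32 and 0.83). The RNA sensors IFIH1 and DDX58 of the same list rose, by 2.06 and 0.85 on the log2 scale, both past the threshold. All of these, and ISG15 and IFIT1 below, were named after their values were seen. Summed over the list, the level went from 487 to 518 CPM in OIS-v-v to 949 to 1131 CPM, with 505 to 595 CPM in OIS-shCEBPB and 626 to 747 CPM in OIS-shp53 libraries. Medians against OIS-v-v were 0.57 with shCEBPB (19 higher, 2 lower), 1.29 with shp53 (25 higher) and 2.33 with both. Of all 13388 genes, 2535 were higher and 2330 lower with shCEBPB, and 1668 were higher with shp53. In direct tests, 28 of the 30 were higher in the double than in OIS-shCEBPB and 24 higher than in OIS-shp53 cells. The median was 2.34 in replicates 1 to 3 and 2.28 in replicates 4 and 5.

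The interferon-stimulated response element, GAAANNGAAA, is the site of the STAT and IRF complex that drives these genes. 2 promoters are shown with it in capitals, found on either strand of the 250 bases before the RefSeq start site (GRCh38.p14), from a list in which 14 of 25 promoters held it (56%), against 839 of 27305 promoters (3.07%) and 237 of 10331 tested genes (2.29%). IFIT1 (plus strand, chr10:89392373-89392622), an inhibitor of viral translation, has matches that start 116 and 103 bases before the start site. IFI6 (minus strand, chr1:27672193-27672442), a survival factor of the mitochondrion, has 3, which start 156, 115 and 93 bases before it.
IFIT1: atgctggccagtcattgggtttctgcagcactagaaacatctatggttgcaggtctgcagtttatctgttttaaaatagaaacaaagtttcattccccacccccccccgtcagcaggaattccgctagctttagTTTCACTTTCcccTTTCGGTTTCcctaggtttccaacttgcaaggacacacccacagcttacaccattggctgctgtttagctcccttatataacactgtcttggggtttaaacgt
IFI6: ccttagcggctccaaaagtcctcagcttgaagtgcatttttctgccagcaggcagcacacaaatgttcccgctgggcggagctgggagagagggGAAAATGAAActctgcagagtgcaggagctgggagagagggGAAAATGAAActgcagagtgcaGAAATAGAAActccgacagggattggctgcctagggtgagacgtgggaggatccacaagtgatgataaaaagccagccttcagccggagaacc
IFIT1 rose from 0.951 to 2.44 CPM to 12.1 to 17.7 CPM, a log2 fold change of 3.29 (3.92 in replicates 1 to 3 and 2.56 in replicates 4 and 5), and IFI6 from 13.6 to 28.1 CPM to 131 to 175 CPM, a log2 fold change of 2.76. Members without a match in this window rose as well, among them OAS1, RSAD2 and MX1, and no match says only that the letters are not in these bases.

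Extracellular matrix (ECM) genes divided. Of 25 fibroblast matrix genes other than collagens, 14 rose, 6 fell and 5 did not pass (median 0.26). The effect was higher in replicates 4 and 5 for 8 of them and lower for 6, with medians of 0.23 in replicates 1 to 3 and 0.32 in replicates 4 and 5. POSTN (periostin), a matricellular protein, was at 228, 225, 223, 264 and 222 CPM in OIS-v-v and at 592, 601, 592, 767 and 751 CPM in OIS-shCEBPB-shp53 libraries (log2 fold change 1.5, SE 0.06, edgeR adjusted p = 2.3e-08). The elastic fibre proteins FBLN1, FBLN2, MFAP2 and FBN2 had log2 fold changes of 1.28, 1.0, 0.94 and 0.41. Small leucine-rich proteoglycans fell, BGN (biglycan) from 73.1 to 137 CPM to 27.0 to 40.0 CPM (log2 fold change -1.57), DCN (decorin) by 1.20 and LUM (lumican) by 1.08, and the adhesion protein TGFBI by 0.84. FN1, fibronectin, was 5293 ± 362 and 5184 ± 397 CPM and did not pass (log2 fold change -0.03, edgeR adjusted p = 0.69, and 0.07 with library sizes alone), nor did SPARC (0.08, edgeR adjusted p = 0.39) or CTGF (0.14, edgeR adjusted p = 0.085), each at less than its Grow-v-v mean of 9691, 4378 and 1093 CPM.

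Collagens changed in 6 of 16 members over all libraries, 4 higher and 2 lower, a share no larger than the 43.4% of all genes. The count depended on the set of replicates, as did that of all genes. It was 5 higher and 6 lower in replicates 1 to 3 (median -0.04) and 8 higher and 1 lower in replicates 4 and 5 (median 0.21). COL15A1 and COL11A1 rose by 1.70 and 1.04, COL5A2 by 0.78 and COL1A2, of type I collagen, by 0.65, and COL8A1, a short-chain collagen, fell from 87.8 to 282 CPM to 19.4 to 46.7 CPM (log2 fold change -2.44, SE 0.09, edgeR adjusted p = 8.3e-09). COL16A1 fell by 0.34 on the log2 scale. Contractile genes were near 0 in the median (0.05), with 5 of 14 higher and 3 lower. LMOD1 and TPM1, of actin filaments, had log2 fold changes of 1.0 and 0.63, CALD1 and VCL ones of 0.42 and 0.35, ANKRD1 one of -0.62, TPM2 and MYL9 ones of -0.28 and -0.20, and MYLK, the myosin kinase, -0.04 (edgeR adjusted p = 0.66, and 0.06 with library sizes alone). TGF-β and Notch genes were lower for 7 of 17 and higher for 4. NOTCH1 was at 105, 115, 95.2, 108 and 119 CPM in OIS-v-v and at 55.2, 53.1, 48.8, 50.5 and 53.3 CPM in OIS-shCEBPB-shp53 libraries (log2 fold change -1.05, SE 0.05, edgeR adjusted p = 6.5e-08). The ligand TGFB2 fell by 1.16, the Notch ligand JAG2 by 0.99 and the Notch target HEY1 by 0.90, whereas the ligands JAG1 and TGFB1 rose by 0.79 and 0.24 and the Notch target HES1 by 0.23.

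The driver itself was lower. HRAS, whose counts join the endogenous gene and the ER:HRAS construct, was at 1313, 1295, 1310, 1052 and 1202 CPM in OIS-v-v and at 641, 627, 671, 674 and 683 CPM in OIS-shCEBPB-shp53 libraries. The groups did not overlap (log2 fold change -0.90, SE 0.06, edgeR adjusted p = 1.5e-06), and means were 1529 CPM in Grow-v-v, 830 CPM in OIS-shCEBPB and 1054 CPM in OIS-shp53 cells. The part of the lower HRAS in the other results was not tested. RAS and MAPK feedback genes moved both ways, with 9 of 21 higher and 6 lower (10 and 7 in replicates 1 to 3, 6 and 7 in replicates 4 and 5), and the effect was lower in replicates 4 and 5 for 9 and higher for 2. IER3, an immediate early gene, fell by 0.94, the early transcription factor EGR1 by 0.82 and the ERK phosphatase DUSP6 by 0.67 on the log2 scale, while the ETS factors ETV1 and ETV4 rose by 0.79 and 0.63, EGR2 by 0.69 and the inhibitor SPRY1 by 0.75. DUSP6, at 323 to 353 CPM, remained above the 79.8 ± 21.2 CPM of Grow-v-v cells.

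Genes of the integrated stress response depended on the set of replicates. The serine synthesis enzyme PHGDH was at 12.5, 14.4, 13, 21.5 and 19.4 CPM in OIS-v-v and at 62.9, 52.0, 51.7, 21.5 and 22.5 CPM in OIS-shCEBPB-shp53 libraries. Only replicates 1 to 3 of the knock-down stood well above the vector libraries, so the log2 fold change of 1.29 (edgeR adjusted p = 0.0063) was 2.06 in replicates 1 to 3 and 0.11 in replicates 4 and 5. PSAT1, the next enzyme, had one of 1.02, which was 1.85 and -0.22 within the sets. PSPH, the last enzyme of the same route, and SHMT2, which uses its product, rose by 0.81 and 0.37 over all libraries. TRIB3, a pseudokinase, fell by 0.60, the cystine transporter SLC7A11 by 0.54 and DDIT4, an inhibitor of mTORC1, by 0.48. Of 14 genes, 5 rose and 4 fell, and the effect differed between the sets for 12, lower in replicates 4 and 5 in each. Of 12 housekeeping genes, 2 rose (HPRT1 by 0.43 and B2M by 0.35) and 2 fell (GAPDH by 0.26 among them), with a median of 0.01.

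**Figure D3:**
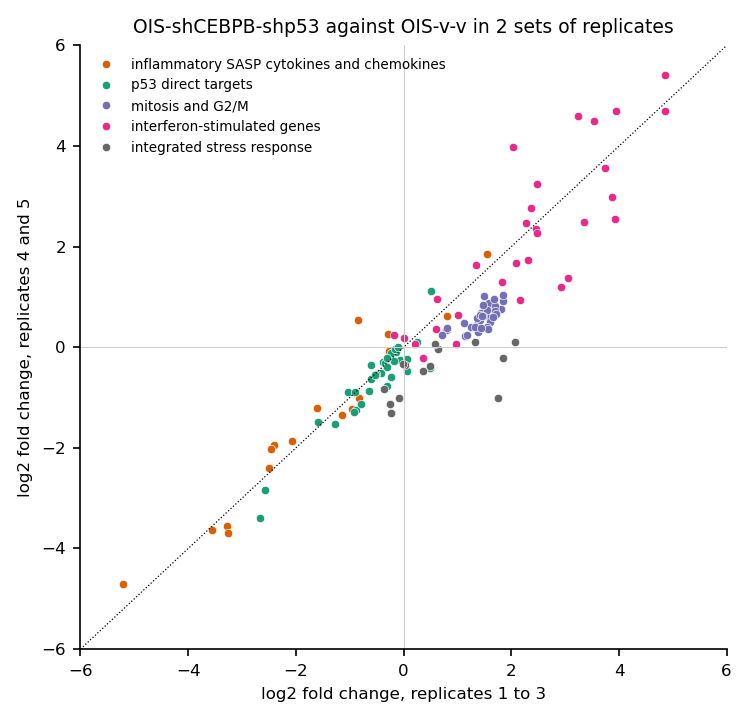
Log2 fold change between OIS-shCEBPB-shp53 and OIS-v-v libraries in replicates 4 and 5 (vertical axis) against replicates 1 to 3 (horizontal axis) for the tested genes of 5 lists, with the line of equal change dotted. Mitosis genes lie below the line (medians 1.48 and 0.62) and interferon-stimulated genes on both sides of it (2.34 and 2.28). Cytokines have like medians (-1.61 and -1.60), but the effect in replicates 4 and 5 was higher for 6 members and lower for 3, and IL1A changed sign.

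Over all genes, the largest fall was that of ENSG00000006075, which was not matched to a symbol and is named after its value was seen, from a mean of 28 to one of 0.318 CPM (log2 fold change -6.42, SE 0.14, edgeR adjusted p = 2.2e-10). Genes with a symbol and large falls follow. SERPINB4, a squamous cell carcinoma antigen, was at 96.6, 91.4, 94.1, 27.2 and 29.6 CPM in OIS-v-v and at 1.06, 1.49, 1.34, 0.733 and 0.717 CPM in OIS-shCEBPB-shp53 libraries (log2 fold change -5.95, SE 0.13, edgeR adjusted p = 2.8e-10). Its near-identical paralog SERPINB3 fell from 0.869 to 4.78 CPM to at most 0.0597 CPM, or 3 counts over the 5 libraries. IVL (involucrin) fell from 13, 11.2, 13.5, 1.90 and 1.27 CPM to at most 0.265 CPM (13 counts), LCE2C, of the cornified envelope, from 1.09 to 6.67 CPM to at most 0.213 CPM (5 counts), and PI3 (elafin), an elastase inhibitor, by 5.44 on the log2 scale. No fold change is given for genes with a group mean below the level of 3 counts per library, since its size depends on very few counts. These 5 genes were higher in replicates 1 to 3 than in replicates 4 and 5 of OIS-v-v, and none of their groups overlapped. HSD11B1, which converts inactive cortisone to cortisol, fell from 1.58 to 2.41 CPM to at most 0.106 CPM (5 counts). ALOX5AP, needed for leukotriene synthesis, fell from 0.724 to 4.67 CPM to at most 0.213 CPM (10 counts).

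The largest rises beside those of OAS1, OAS2, RSAD2 and BST2 were of genes near absent from OIS-v-v cells. TNFSF11 (RANKL), a TNF family cytokine, went from at most 0.169 CPM to 3.65, 4.04, 3.27, 2.46 and 3.05 CPM, from 6 to 299 counts over the 5 libraries, and the kinase DCLK3 from at most 0.119 CPM to 2.33 to 3.65 CPM, from 5 to 273 counts. SLC7A14, of a family of amino acid transporters, went from 1.18, 0.773, 0.878, 0.217 and 0.121 CPM to 22.8, 22.3, 21.9, 11.7 and 10.3 CPM (log2 fold change 4.82, SE 0.18, edgeR adjusted p = 1.3e-08). SFRP2, a secreted modulator of Wnt signalling, went from at most 0.217 CPM to 1.28 to 2.86 CPM, from 7 to 194 counts. None of these groups overlapped.

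Whether the second knock-down added to the first was tested in a fit of the 4 OIS groups. The double knock-down differed from OIS-shCEBPB cells in 4055 of 13873 genes (29.2%), 2041 higher (14.7%) and 2014 lower (14.5%). It differed from OIS-shp53 cells in 5102 genes (36.8%), 2726 higher (19.6%) and 2376 lower (17.1%). For the SASP cytokines, the double lay near OIS-shCEBPB cells, with a median difference of -0.05 (5 of 18 tested in this fit higher, 7 lower), and far below OIS-shp53 cells, with a median of -1.73 (2 higher, 14 lower). Against OIS-v-v, the medians of these 18 genes were -1.70 with shCEBPB and -0.04 with shp53. The median of -1.46 with both is from the fit of 10 libraries and its 17 genes, so it is not directly comparable with these. IL8 was 1520 ± 267 CPM in OIS-shCEBPB and 1466 ± 192 CPM in the double (log2 difference -0.05, edgeR adjusted p = 0.60), whereas IL1B fell further, from 899 ± 191 to 673 ± 69.5 CPM (-0.40, edgeR adjusted p = 4.7e-06). CXCL1 was higher in the double, 567 ± 22.7 against 449 ± 22.5 CPM (0.34, edgeR adjusted p = 1.0e-04).

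**Figure D4:**
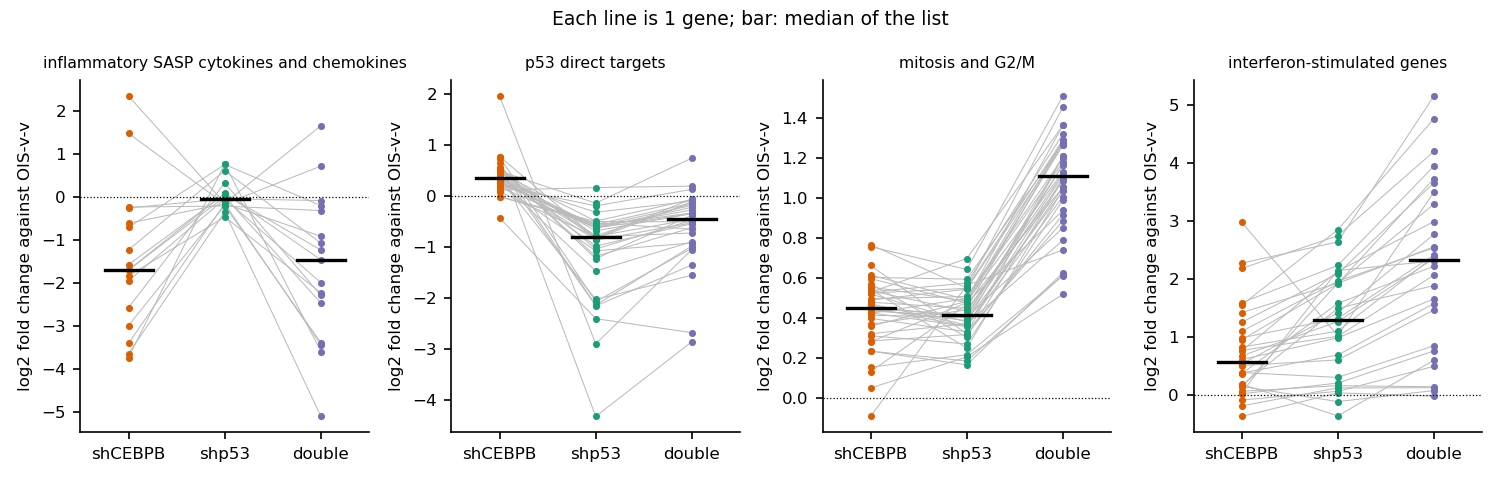
Log2 fold change against OIS-v-v libraries (vertical axes) with shCEBPB, shp53 and both (horizontal axis) for the tested genes of 4 lists, 1 line per gene, with the median as a bar; the 3 comparisons share the OIS-v-v libraries. SASP medians were -1.70 and -0.04 over 18 genes for the single knock-downs and -1.46 over 17 genes for both. Only genes tested in both fits are drawn, so the SASP bars of the single knock-downs can differ from these values. The p53 target medians were 0.34, -0.81 and -0.46, mitosis medians 0.45, 0.42 and 1.11, and interferon-stimulated medians 0.57, 1.29 and 2.33.

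Few genes passed the test for a departure from additive effects on the log2 scale over all replicates. Those that did not pass were not shown to be additive. The interaction term, the effect of both shRNAs less the sum of the effects of each, passed for 104 of 13873 genes (0.75%), 32 higher (0.231%) and 72 lower (0.519%). The count depended on the set of replicates and on the block. It was 29, 34 and 42 when replicate 1, 2 or 3 was left out, but 112 and 105 when replicate 4 or 5 was. Without the block it was 6, and it was 1034 in replicates 1 to 3 and 280 in replicates 4 and 5 alone. For the 39 mitosis genes the median interaction term was 0.23, but none of the 39 passed the interaction test. TRIM22, an antiviral ubiquitin ligase induced by p53 and by interferon, had the largest called positive term among named genes, 0.89 (edgeR adjusted p = 4.3e-04). Its level was 20.2 ± 1.44 CPM in OIS-v-v, 42.1 ± 1.6 in OIS-shCEBPB, 3.32 ± 0.735 in OIS-shp53 and 12.8 ± 0.599 CPM in double knock-down cells (SD, n = 5 each). IFI6 followed with 0.80 and levels of 22.0 ± 5.55, 32.1 ± 6.55, 59.0 ± 10.7 and 148 ± 18.3 CPM in the same order, and ISG15, a ubiquitin-like modifier, with 0.53. ODC1, the first enzyme of polyamine synthesis, had a term of 0.66, with 626 ± 86.9, 378 ± 19.6, 529 ± 22.7 and 504 ± 14.6 CPM, so that it was lower in each knock-down than in OIS-v-v, and lowest with shCEBPB alone. ENSG00000260108, which carries no symbol other than this identifier, and HSCB, an iron-sulphur cluster chaperone, had terms of 0.72 and 0.55.

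Negative terms were found where both together left less than the sum. MMP3 had one of -0.53 (edgeR adjusted p = 4.0e-05), with 6239 ± 847 CPM in OIS-v-v, 1325 ± 198 in OIS-shCEBPB, 6334 ± 1193 in OIS-shp53 and 921 ± 117 CPM in double knock-down cells, so adding shp53 to shCEBPB changed it by -0.52 (edgeR adjusted p = 5.5e-09), where shp53 alone changed it by 0.01 (edgeR adjusted p = 0.91). LIF (-0.78), IL24 (-0.64), CSF1 (-0.60) and C3 (-0.75) were further secreted factors with a called negative term, and CCND2 had one of -0.67. SLC7A14 had -1.34, with 0.634 ± 0.451, 11.6 ± 6.09, 2.59 ± 1.34 and 17.8 ± 6.22 CPM. FGF7, keratinocyte growth factor, had -1.20, since it was 3.82 ± 0.921 CPM in OIS-shp53 and 1.29 ± 0.0987 CPM in the double against 2.23 ± 0.391 CPM in OIS-v-v. Further called negative terms were those of GASK1B, a Golgi kinase relative (-1.53), BEAN1 (-1.43) and the cornified envelope gene LCE1F (-1.29).

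**Figure D5:**
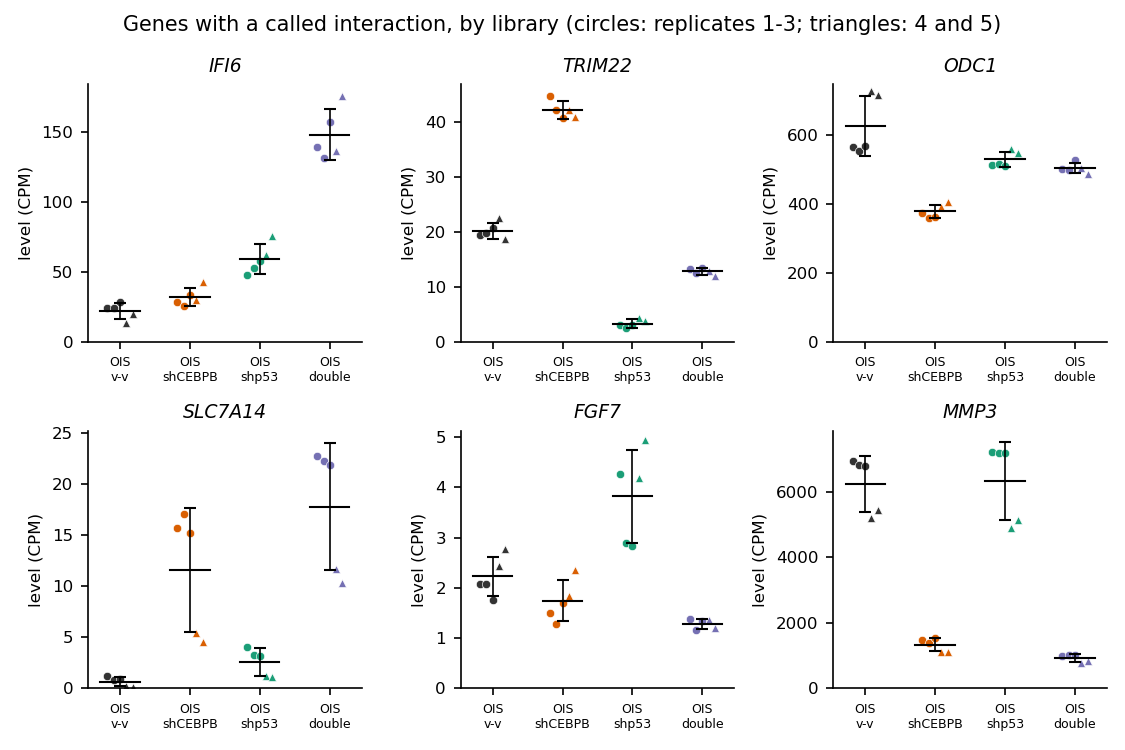
Level in CPM (vertical axes, from 0) of 6 genes with a called interaction in the 20 OIS libraries, by group (horizontal axis); circles are replicates 1 to 3, triangles replicates 4 and 5, and bars the mean ± SD (n = 5). IFI6 was highest in the double knock-down (148 CPM), TRIM22 highest with shCEBPB alone (42.1 CPM), FGF7 highest with shp53 alone (3.82 CPM) and MMP3 low in both groups with shCEBPB.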

How the data were processed

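RNA-seq was analysed in 10 libraries of IMR90 cells, 5 OIS-v-v and 5 OIS-shCEBPB-shp53, with the 15 other libraries of the same table for reference. The deposited values are raw counts per gene, which the authors made by aligning poly(A) RNA-seq reads to hg19 with STAR and counting on GENCODE annotation with featureCounts. The options of the counting, strand included, are not given in the sources used here for this table. Symbols were matched for 42662 of 44503 gene identifiers (95.9%). The table holds 5 libraries per group, fewer than the number of replicates that the labels state, and the others are not analysed here. Within each group, no 2 libraries agreed within sampling noise, but those of a set were much closer. In OIS-v-v, chi-square per degree of freedom was 2.01 for replicates 1 and 3, 5.86 for 4 and 5, and 40.3 for 1 and 4. In OIS-shCEBPB-shp53 it was 2.02 for replicates 1 and 2, 2.05 for 4 and 5, and 13.7 for 1 and 4. How far libraries of a set are independent of each other was not tested.

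Counts were filtered with filterByExpr at a minimum of 10 counts, scaled by TMM and tested with the quasi-likelihood F test of edgeR 4.0.16 (R 4.3.3, limma 3.58.1), with Benjamini-Hochberg adjustment over all genes tested and a threshold of 0.05. Standard errors are the log2 fold change over the square root of F. The double against each single knock-down and the interaction were fitted over the 4 OIS groups. The replicate number was a block in each fit. Deviations from the group means correlated at 0.297 to 0.447 between same-numbered libraries (n = 5 pairs), at 0.239 to 0.498 between other numbers of the same set (n = 8) and at -0.421 to -0.303 between the sets (n = 12). The samples thus pair by set, and no closer pairing by number was seen within a set. Without the replicate block, 4502 genes were called in place of 5806. A block of the 2 sets alone, added after seeing the data, gave 6431. P-values measure the spread between these libraries.

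Named genes were the targets, genes of the study's question, up to 4 rises and 4 falls per list and 8 each over all genes (mean of at least 1 CPM), the 5 largest interaction terms in each direction, and the C/EBP and CDK inhibitor lists. LIF, ISG15, IFIT1, CDC20, MDM2, STAT2, IRF1, IRF9, IL1A, CXCL6 and CSF2 were named after their values were seen. So were IFIH1 and DDX58, which are not among the named genes counted below. Some genes that the rule names are not reported here. Members and lists were chosen with earlier results of these data known. DESeq2 1.42.0, other scalings and filters, and leaving out each replicate number were alternatives. Fits within each set of replicates were added after seeing the data. Scripts were tested on simulated data. Promoters are RefSeq sequences of GRCh38.p14.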

Additional observations from a re-analysis of the deposited data

Results flagged for a closer look

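A library stood far from the other 4 of its group, by Dixon's criterion at 0.71, in 12 of 346 groups of 5 checked, where chance gives about 1 in 20. In OIS-v-v libraries these were replicate 4 for FGF2 (414.5 CPM), IL1RAP (50.3 CPM), NFKBIE (18.8 CPM), POSTN (263.6 CPM) and SFRP2 (0.2173 CPM), and replicate 5 for PTX3 (71.78 CPM). In OIS-shCEBPB-shp53 libraries they were replicate 5 for CEBPD (171.3 CPM), FBLN1 (104.1 CPM) and LIF (113.9 CPM), replicate 4 for GINS4 (28.82 CPM), replicate 2 for LCE2C (0.2127 CPM) and replicate 1 for MDM2 (51.58 CPM).

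The effect of one shRNA differed with the presence of the other, by the interaction term in edgeR at an adjusted p under 0.05, for 104 genes. Among named genes the term was positive for TRIM22 (0.89), IFI6 (0.80), ENSG00000260108 (0.72), ODC1 (0.66), HSCB (0.55) and ISG15 (0.53). It was negative for GASK1B (-1.53), BEAN1 (-1.43), SLC7A14 (-1.335), LCE1F (-1.29), FGF7 (-1.195), LIF (-0.78), C3 (-0.75), CCND2 (-0.67), IL24 (-0.64), CSF1 (-0.60) and MMP3 (-0.53).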

How the results depend on the processing

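Of 172 named genes, 132 had the same call under every other scaling, filter, fit and left-out replicate number, and of 315 list medians 29 moved by more than the spread between replicate numbers. Medians near 0 could change sign, as those of the collagens in replicates 1 to 3 (-0.04) and of the integrated stress response in replicates 4 and 5 (-0.36) did. Genes called in the double knock-down against OIS-v-v were 4502 without the replicate block, 1934 at a fold of at least 1.5 and 847 at one of 2, and 4549 to 6130 when a replicate number was left out. For the interaction, 104 became 6 without the replicate block, 379 with no filter beyond 1 count, 9 with all 5 groups in the fit, 29 to 112 without a replicate number, 45 at an adjusted p under 0.01, and 31 and 11 at folds of at least 1.5 and 2. Against OIS-shCEBPB, 4055 became 1565 without the replicate block, 2472 with all 5 groups, 2585 to 4165 without a replicate number, 2417 at 0.01, and 788 and 229 at these folds. Against OIS-shp53, 5102 became 3249 without the replicate block, 4131 to 4965 without a replicate number, and 1439 and 631 at these folds. Within replicates 1 to 3 the interaction gave 1034. Within replicates 4 and 5 it gave 280, and the comparisons with OIS-shCEBPB and OIS-shp53 gave 1515 and 3282. Library sizes alone gave 2498 higher and 1557 lower against OIS-shCEBPB and 4428 and 1624 against OIS-shp53. The causes were not tested.

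Log2 fold changes changed sign with library sizes alone for CSF2 (0.0255), FN1 (0.0701) and MYLK (0.063). In replicates 4 and 5, chosen after seeing the data, they did so for BEAN1 (0.147), CCND3 (0.00653), CSF2 (0.267), CTGF (-0.0372), E2F1 (-0.176), FN1 (0.0939), IL1A (0.536), IRF1 (-0.203), MYL9 (0.0325) and PSAT1 (-0.221), and in replicates 1 to 3 for HSCB (-0.0376), MYLK (0.10) and SPARC (-0.054). With a replicate number left out, values ran from -0.0247 to 0.127 for E2F1, -0.081 to 0.0171 for FN1, -0.000468 to 0.122 for HSCB, -0.11 to 0.225 for IRF9 and -0.098 to 0.0233 for MYLK. Apart from MYL9 and PSAT1, these genes did not pass the test over all libraries. Depth limits genes of a few counts per library, where fold changes are uncertain.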
